A study of Homo sapiens with 24 samples.

Results

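The alpha and beta tubulin isotypes, the building blocks of the tracks on which the kinesin KIF20A moves, were examined in 24 RNA-Seq libraries of 3 TNBC cell lines. Their 10 genes (TUBA1A, TUBA1B, TUBA1C, TUBB, TUBB2A, TUBB2B, TUBB3, TUBB4A, TUBB4B and TUBB6) were chosen by symbol, with earlier results of these data known. All 10 were listed in each of the 4 tables, among 14330 gene names common to the tables. Each of 8 conditions had 3 replicates. Wild-type Hs578T and wild-type HCC70 cells, 2 established breast cancer lines, were sorted by FACS into BCSCs, which were CD24-CD44+ and ALDH+, and into non-BCSCs, which lacked both properties. MDA-MB-231 cells, another breast cancer line, carried a control sgRNA (sgCtrl) or KIF20A sgRNA 1 (KIF20A sg1, named a KIF20A knockdown in the labels) in one experiment, and an empty control vector (EV) or a construct labelled KIF20A overexpression (OE) in the other. All 24 libraries came from cultured lines, and each line or experiment was also its own batch and its own table, so that line and batch cannot be told apart.

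Microtubules are hollow polymers of dimers, each made of an alpha and a beta tubulin. Vertebrates encode several isotypes of both, which are nearly identical through the folded body of the protein and differ mainly in an acidic tail at the carboxyl end, where enzymes attach or remove amino acids and where motors and other microtubule-binding proteins make contact. TUBB, TUBB4B, TUBA1B and TUBA1C are widely expressed, TUBB3 and TUBB2B are best known from neurons, TUBB4A from brain, and TUBB6 from many tissues outside the nervous system. Cells need much tubulin when they divide, since the mitotic spindle is built of it, and free tubulin dimers speed up the decay of tubulin mRNAs.

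The last 60 coding bases of the canonical transcript of each beta isotype (GENCODE v44, GRCh38), stop codon included, are shown because they encode the tail by which the isotypes are told apart. Capitals mark bases that differ from TUBB in an alignment of the whole coding sequences.
TUBB: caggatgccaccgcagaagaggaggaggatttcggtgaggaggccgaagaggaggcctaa
TUBB2A: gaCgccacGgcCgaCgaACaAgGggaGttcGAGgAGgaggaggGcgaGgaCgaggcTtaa
TUBB2B: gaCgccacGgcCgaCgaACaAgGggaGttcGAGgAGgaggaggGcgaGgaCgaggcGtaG
TUBB3: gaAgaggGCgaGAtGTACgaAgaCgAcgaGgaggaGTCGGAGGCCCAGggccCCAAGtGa
TUBB4A: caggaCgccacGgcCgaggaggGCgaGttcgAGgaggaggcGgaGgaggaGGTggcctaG
TUBB4B: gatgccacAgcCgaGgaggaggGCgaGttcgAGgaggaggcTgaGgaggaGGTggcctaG
TUBB6: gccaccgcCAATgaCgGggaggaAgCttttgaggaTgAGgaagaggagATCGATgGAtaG
TUBB3 had the most capitals in its tail, 32 of 60, while TUBB4A and TUBB4B had 14 each and TUBB2A and TUBB2B had 18 and 19. Over the whole coding sequence TUBB2A and TUBB2B were 98.1% identical, the 3 alpha isotypes 95.9% to 97.2%, and TUBB was 81.0% to 84.7% identical to the other beta isotypes.

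Such likeness limits how far reads can be given to one isotype. TUBB2A (chr6:3153497-3157544, minus strand, GRCh38) shared 53.7% of the 100-base windows of its canonical transcript with TUBB2B (chr6:3223324-3231730, minus strand), so the split of reads between this pair is uncertain. TUBA1A (chr12:49184686-49189080, minus), TUBA1B (chr12:49127782-49131397, minus) and TUBA1C (chr12:49188736-49274600, plus) lie in one cluster. Of their canonical windows, 21.2%, 37.2% and 12.3% were found in other transcripts, and 43.96% of the exon bases of TUBA1B are overlapped on the opposite strand by TUBA1B-AS1. TUBB3 (chr16:89921392-89938761, plus) shared 92.5% of its windows with a read-through gene, ENSG00000198211, that overlaps it on the same strand, so a low TUBB3 value can mean reads that were not assigned. TUBB (chr6:30717435-30725538, plus) shared 5.42% of its windows, TUBB4B (chr9:137241287-137243707, plus) 3.00%, and TUBB4A (chr19:6494319-6502848, minus) and TUBB6 (chr18:12307669-12344320, plus) shared 0. This search covered transcripts of GENCODE v44 only.

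Total reads per library, recovered from the deposited values, ran from 28403202 to 33973761 for Hs578T, from 24984524 to 33986750 for HCC70, from 41424338 to 51018667 for the KIF20A sg1 experiment and from 15971297 to 22182293 for the OE experiment. The labelled lines were checked against 10 mesenchymal and 10 epithelial genes. The mesenchymal genes listed summed to 16667 to 19186 TPM in Hs578T and to 1424 to 1644 TPM in HCC70, and the epithelial genes listed summed to 417 to 506 TPM in Hs578T and to 7947 to 8435 TPM in HCC70. The libraries labelled KIF20A OE stood apart from MDA-MB-231. CD44, a surface marker of that line, was at 523 to 788 CPM in EV and at 0.125 to 1.23 CPM in the libraries labelled OE, and the 10 mesenchymal genes summed to 10376 to 12058 CPM in EV and to 691 to 1191 CPM in the others. Of 9 listed genes known from neural cells or embryonic kidney lines, 0 averaged 1 CPM or more in EV and 7 did so in the libraries labelled OE. Their sum was 0.0483 to 0.118 CPM in EV and 1433 to 2001 CPM in those libraries, of which IRS4 made up 1219 to 1750 CPM against 0 reads in EV. All 3 libraries of the group shared this pattern, so the result of that comparison cannot be given without them.

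To compare isotype usage between lines, each isotype was given as a share of the sum of the 3 alpha or the 7 beta isotypes in the same library. On the deposited TPM scale TUBA1B made up 60.3% ± 0.34 (SD, n = 3) of the alpha sum in Hs578T non-BCSCs and 63.7% ± 0.43 in HCC70 non-BCSCs. TUBA1A made up 13.1% ± 0.22 in Hs578T and 0.79% ± 0.085 in HCC70, and TUBA1C made up 26.6% ± 0.53 and 35.6% ± 0.51. Among the beta isotypes, TUBB4B held 33.7% ± 0.73 in Hs578T and 52.6% ± 0.56 in HCC70, and TUBB3 held 21.6% ± 0.42 and 5.72% ± 0.33. TUBB held 23.2% ± 0.67 in Hs578T and 26.9% ± 1.08 in HCC70. For all of these isotypes the 3 values of the one line did not overlap those of the other. Line and batch cannot be told apart here, and no test was made between lines.

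The share of TUBB, the major beta isotype of most cells, depended on the length used. TPM divides reads by a length, and the length behind each gene's TPM can be read back from the recovered reads. For TUBB it was close to 19720 bases in Hs578T and 19710 bases in HCC70, while its canonical transcript is 2515 bases long, a ratio of 7.84. That ratio was at the 99.66th percentile of 15979 protein-coding genes, whose median was set to 1. The 60 protein-coding genes that start within 1 Mb of TUBB had a median ratio of 7.72, whereas the neighbours of the other 9 isotypes had medians from 0.998 to 1.08. The isotypes other than TUBB had ratios from 0.546 (TUBA1C) to 1.47 (TUBA1A). The long length exceeds the 4071 exon bases that GENCODE v44 gives TUBB over all its transcripts. Its cause was not tested, nor whether the read counts of TUBB were affected along with it. Which scale gives the better shares of TUBB and the other beta isotypes is therefore not known. Fold changes of TUBB within a line do not depend on the length.

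**Figure D1:**
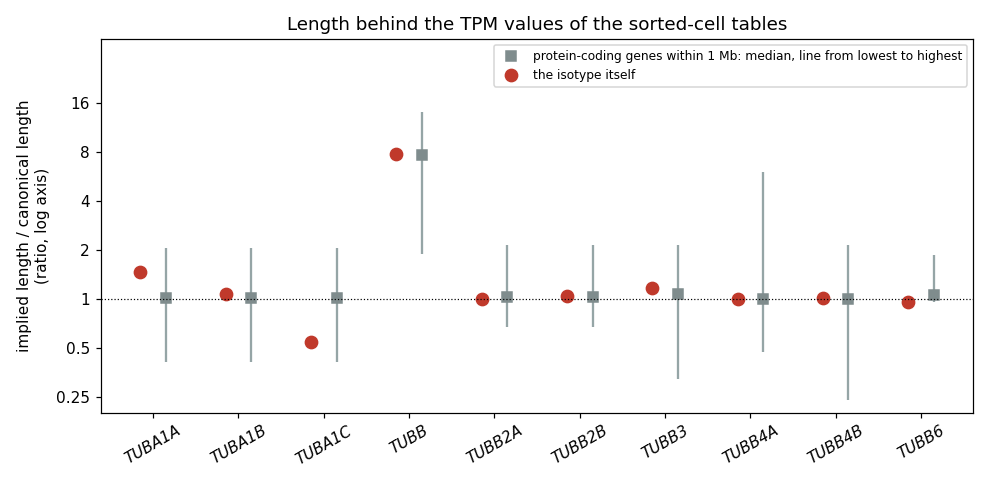
The vertical axis gives, on a log scale, the length behind the TPM values divided by the canonical transcript length for each isotype (red) and the median, lowest and highest ratio of protein-coding genes within 1 Mb (grey). TUBB stands at 7.84 with its neighbours at a median of 7.72, while the other isotypes lie between 0.546 and 1.47.

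Reads were also divided by the canonical transcript length and by the library's total (RPKM, reads per kilobase and 1e+06 reads), a scale that can be computed in all 4 tables. On this scale TUBB was the largest beta isotype in both sorted lines, with 990 ± 25.3 RPKM or 69.4% of the beta sum in Hs578T non-BCSCs and 455 ± 45.2 RPKM or 74.0% in HCC70 non-BCSCs. TUBB4B followed with 13.0% and 18.7%. TUBB3, the isotype best known from neurons, held 9.63% of the beta sum in Hs578T and 2.35% in HCC70, and TUBB6 held 6.47% and 4.06%. TUBA1B remained the largest alpha isotype, with 65.6% ± 0.17 in Hs578T and 76.8% ± 0.26 in HCC70.

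Both MDA-MB-231 controls had another makeup. In the EV libraries TUBB held 53.2% ± 5.76 of the beta sum, TUBB4B 26.1% ± 3.33 and TUBB6 19.6% ± 4.27, while TUBB3 held 0.0711% ± 0.0192. In the sgCtrl libraries TUBB4B held 60.8% ± 2.68, TUBB 18.9% ± 2.15, TUBB6 16.2% ± 0.85 and TUBB3 0.0255% ± 0.0120. TUBB6 held 15.2% to 24.1% in the 6 control libraries of MDA-MB-231 and 3.01% to 7.23% in the libraries of the other lines on this scale. Its TPM shares were 16.5% to 18.4% in Hs578T and 9.17% to 13.2% in HCC70, and the gap to MDA-MB-231 was not tested on that scale. TUBA1A held 26.9% ± 8.54 of the alpha sum in EV and 10.5% ± 2.15 in sgCtrl, and TUBA1C held 8.20% ± 1.01 and 37.0% ± 3.63.

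**Figure D2:**
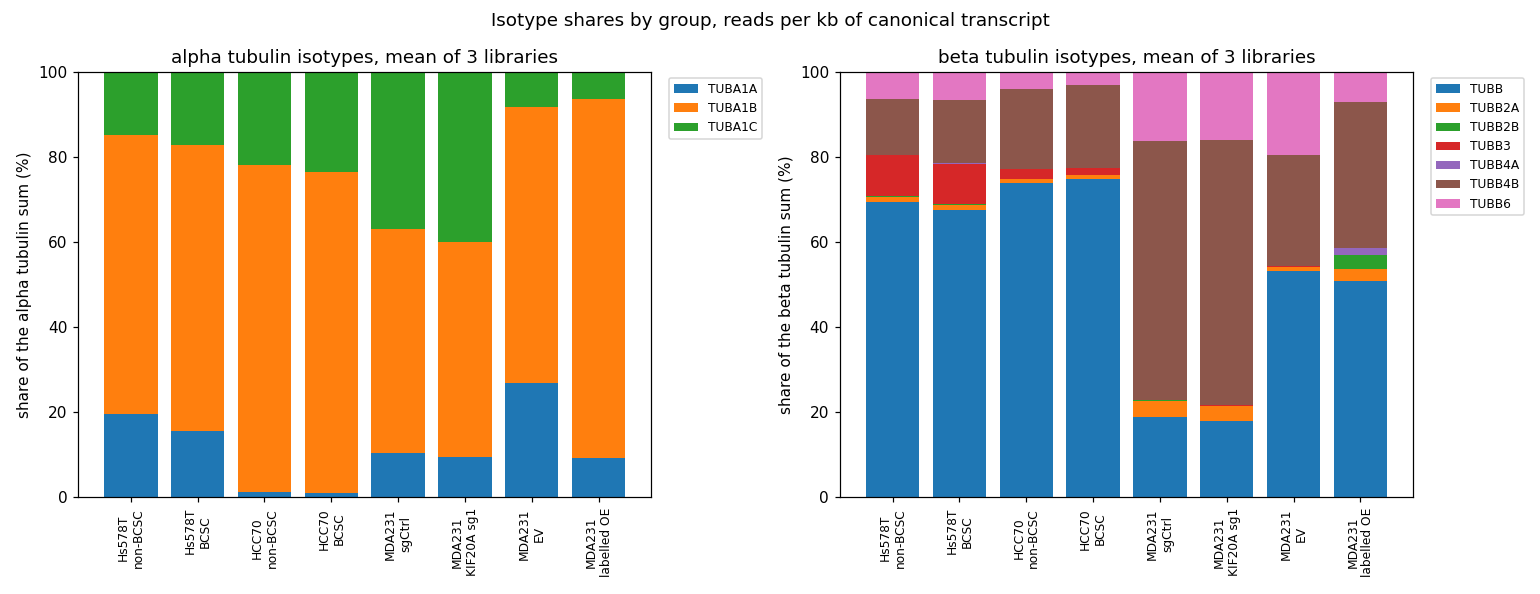
Stacked bars give the mean share of each isotype, in percent of the alpha (left) or beta (right) tubulin sum, for the 8 groups of 3 libraries, from RPKM. TUBB fills most of the beta bars of Hs578T and HCC70, TUBB3 is visible mainly in Hs578T (9.63% in non-BCSCs), and TUBB2B and TUBB4A are visible mainly in the libraries labelled OE.

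The 2 control sets carry the same line name but differed in table, batch and vector. TUBB was at 768 ± 50.4 RPKM in EV and 179 ± 37.3 RPKM in sgCtrl, a log2 difference of -2.10 in CPM, against a median of -0.11 over 11120 protein-coding genes. The 33 genes within 1 Mb of TUBB that passed 1 CPM in both sets had a median difference of -1.53. TUBB was thus low in sgCtrl together with its neighbours, and the beta shares of sgCtrl carry this regional difference, whose cause was not tested. TUBA1A differed by -2.67, TUBA1B by -1.61, TUBA1C by 0.89 and TUBB4B by 0.60 between sgCtrl and EV. These values come from tables normalized separately and were not tested, so isotype shares of MDA-MB-231 depend on which control set is read.

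TUBB3 values differed widely between lines, which were also separate batches. Its level was 141 ± 17.6 RPKM in Hs578T BCSCs and 138 ± 9.43 in Hs578T non-BCSCs, whose ranges overlapped, then 14.4 ± 0.43 in HCC70 non-BCSCs and 12.2 ± 2.34 in HCC70 BCSCs, which also overlapped, and 0.144 to 1.04 on average in the 4 groups of the MDA-MB-231 experiments. There it had 0 to 40 reads per library. The read-through gene that shares 92.5% of the TUBB3 windows had 0 reads in each sgCtrl and KIF20A sg1 library. It was not found under the names searched among the genes listed for Hs578T, HCC70 or the OE experiment. TUBB3 levels may therefore rest on unlike gene lists. A low TUBB3 value can mean reads that were not assigned, and this was not tested. TUBA1A ran from 328 ± 142 RPKM in EV and 179 ± 3.64 in Hs578T non-BCSCs to 4.32 ± 0.46 and 3.59 ± 0.32 in HCC70 BCSCs and non-BCSCs, whose ranges overlapped. TUBB2B and TUBB4A were near the limit of detection in HCC70, and TUBB4A also in the MDA-MB-231 groups other than the libraries labelled OE, with 0 to 4 reads per library, while in Hs578T they had 71 to 113 and 72 to 139 reads per library. In HCC70 TUBB2B had 0 reads in each non-BCSC library and 4, 0 and 1 in the BCSC libraries, and TUBB4A had 1, 0 and 0 and then 0 in all 3. A count of 3 reads over the 3 non-BCSC libraries would be 0.0357 CPM, which covers counting error only.

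**Figure D3:**
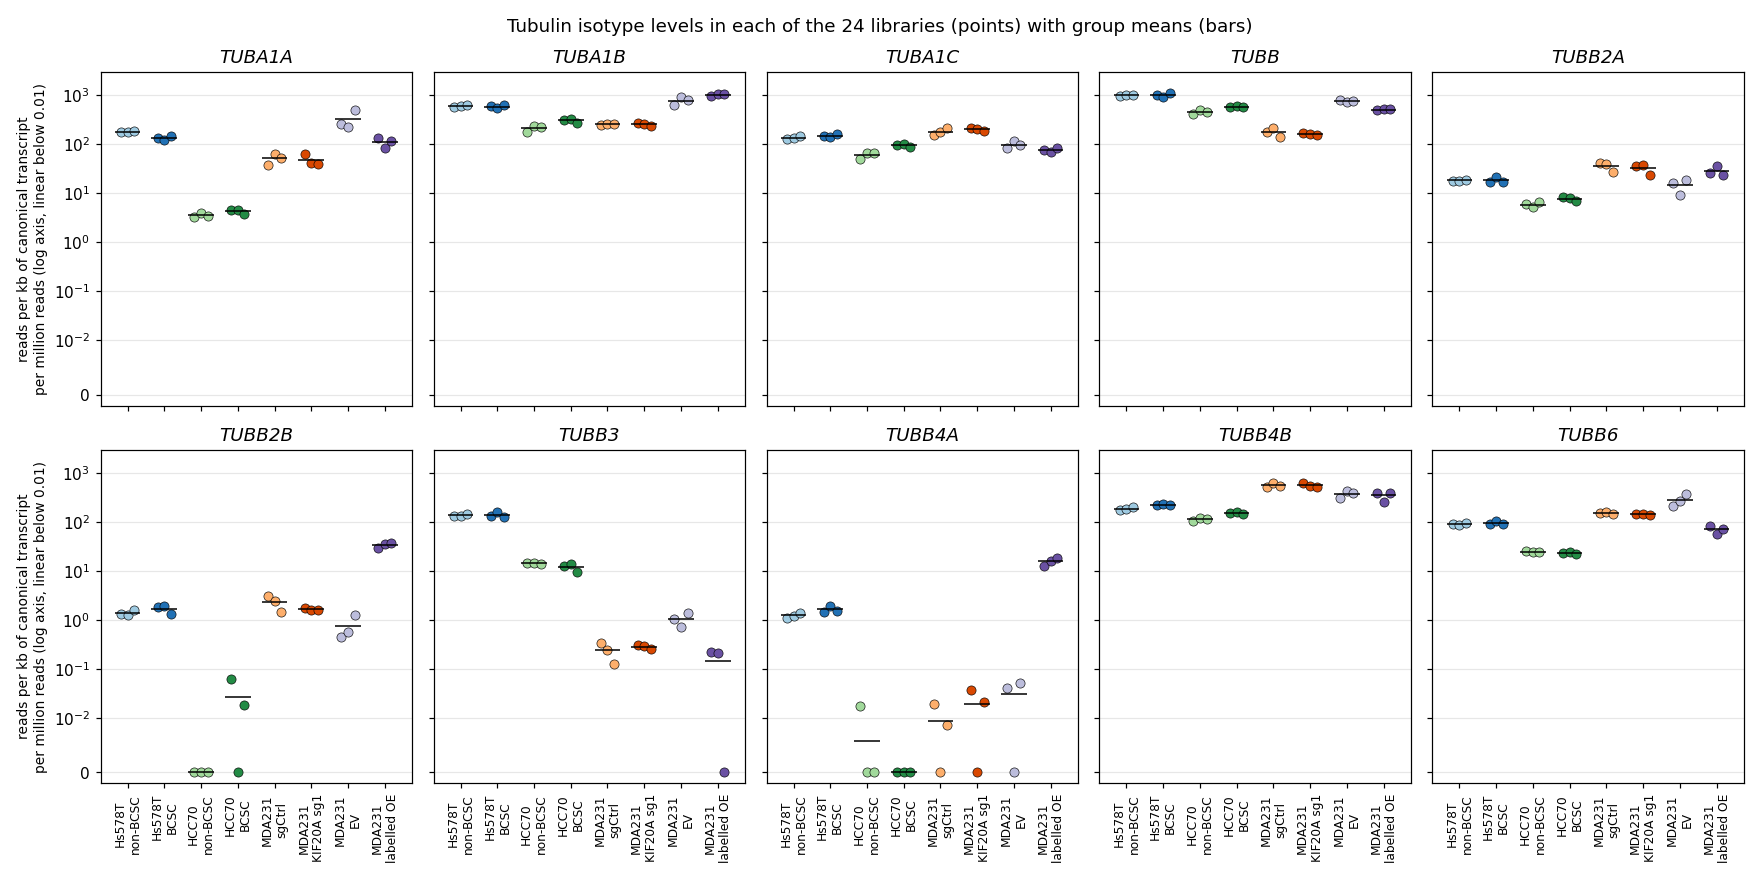
Each panel shows 1 isotype with its level in RPKM from the canonical transcript length, on a log axis that is linear below 0.01, in the 8 groups. Points are libraries and bars are group means. TUBB3 falls from 141 in Hs578T BCSCs to 0.144 in the libraries labelled OE, and TUBB4A rises above 10 only in those libraries.

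Whether BCSCs carry other tubulin than non-BCSCs was asked first in Hs578T. Of the 10 isotypes, TUBA1A was lower and TUBB4B was higher in BCSCs, and 8 did not pass an adjusted p of 0.05 (limma on log2(TPM + 1), Benjamini-Hochberg over 13324 genes, of which 7.15% passed). Over all genes 386 (2.9%) were higher and 567 (4.26%) lower. With size factors by median of ratios, which set each library against the geometric mean over libraries, 620 were higher and 573 lower. TUBA1A, an alpha isotype prominent in neurons, was at 290, 293 and 293 TPM in non-BCSCs and at 219.04, 195.47 and 238.05 TPM in BCSCs. All 3 BCSC libraries lay below all 3 non-BCSC libraries. Its log2 fold change was -0.43 ± 0.07 (SE) with an adjusted p of 0.0119 by limma, and 0.0542 without non-BCSC replicate 2.

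TUBB4B, a beta isotype found in most tissues and in cilia, was at 418, 439 and 465 TPM in non-BCSCs and at 510, 539 and 526 TPM in BCSCs. The groups did not overlap, and the log2 fold change was 0.25 ± 0.05 (adjusted p = 0.0270 by limma). Its call was lost in 4 of the 6 fits that left out 1 library, those without non-BCSC replicate 1 or 2 and without BCSC replicate 1 or 3, with adjusted p of 0.0605 to 0.126 by limma. TUBB4A also did not overlap between the groups, at 2.70, 2.90 and 3.35 TPM for non-BCSCs against 3.44, 4.61 and 3.61 TPM for BCSCs, but its adjusted p was 0.179. Groups that do not overlap were found for 3 of the 10 isotypes, 2 higher and 1 lower, and for 29% of all genes tested, 12% higher and 17% lower. TUBB, TUBB2A, TUBB3, TUBB6 and TUBA1B had log2 fold changes of -0.06 to 0.05.

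In HCC70, 8 isotypes passed the filter on low values, and 4 of them were higher in BCSCs with 0 lower, where 2.83% of 13218 genes passed the test, 2.28% as higher and 0.552% as lower. TUBA1C, a widely expressed alpha isotype, was at 222, 294 and 298 TPM in non-BCSCs and at 451, 465 and 414 TPM in BCSCs. That is a log2 fold change of 0.72 ± 0.12 (adjusted p = 0.0252 by limma). TUBA1B, the most abundant alpha isotype, went from 407, 523 and 525 TPM to 733, 775 and 662 TPM, by 0.58 ± 0.11 (adjusted p = 0.0425 by limma). The lowest BCSC library lay above the highest non-BCSC library for both genes.

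TUBB4B was at 259, 291 and 282 TPM in HCC70 non-BCSCs and at 379, 387 and 380 TPM in BCSCs. Its log2 fold change of 0.46 ± 0.06 had the lowest adjusted p of the isotypes, 0.0113 by limma. TUBB was at 128, 152 and 145 TPM and at 183, 191 and 187 TPM, a change of 0.40 ± 0.07 (adjusted p = 0.0349 by limma). Non-BCSC replicate 1 was the lowest of its group for all 4 of these isotypes. TUBB2A, a beta isotype with a high level in brain, went from 14.7, 12.5 and 16.1 TPM to 21.3, 19.6 and 17.8 TPM without overlap, but its adjusted p was 0.0690. TUBA1A (0.27 ± 0.09), TUBB3 (-0.19 ± 0.12) and TUBB6 (-0.02 ± 0.05) did not pass either. On the TPM scale the BCSC values lay above the non-BCSC values without overlap for 6 of the 8 isotypes, as they did for 20.9% of all genes tested. TUBA1A was among the 6, but its ranges overlapped on the RPKM scale, at 3.33 to 3.94 in non-BCSCs against 3.78 to 4.59 in BCSCs. Groups did not overlap in either direction for 30.9% of genes, and 10.1% were apart and lower.

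These HCC70 calls were near the threshold. Leaving out any 1 of the 3 BCSC libraries left 0 isotypes called (adjusted p of 0.0512 to 0.157 for the 4 genes by limma), while their log2 fold changes stayed between 0.38 and 0.76. Leaving out non-BCSC replicate 2 or 3 left 2 called, and leaving out non-BCSC replicate 1 left 4. Median-of-ratios size factors left 1 isotype called, TUBB4B, and edgeR and DESeq2 on recovered reads called 5 each.

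**Figure D4:**
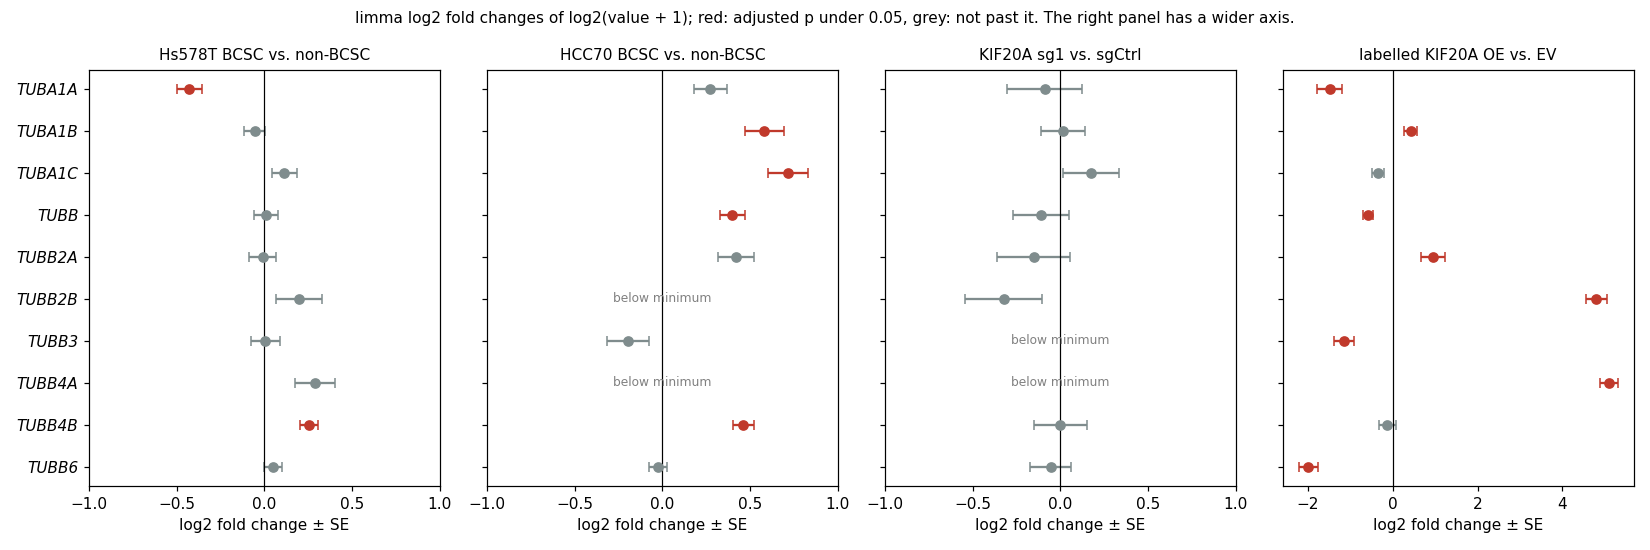
Points are log2 fold changes of log2(value + 1) with their standard errors from limma for the 10 isotypes in the 4 comparisons, red where the adjusted p was under 0.05. TUBA1A lies at -0.43 in Hs578T and at 0.27 in HCC70, and no isotype is red for KIF20A sg1. The right panel, on a wider axis, runs from -1.99 for TUBB6 to 5.10 for TUBB4A. TUBB4A passed the filter only through the libraries labelled OE and TUBB3 only through EV, so their red points are not a test result.

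The difference between the lines was tested itself, as the interaction of fraction and line over the 12 sorted libraries. Of 8 isotypes averaging 1 TPM or more in both lines, 4 had a positive difference, the HCC70 log2 fold change minus that of Hs578T (adjusted p under 0.05 by limma, as 7.11% of 11668 genes did in either direction and 5.62% in this one). With median-of-ratios size factors, 403 genes were higher and 333 lower, against 656 and 174. TUBA1A differed most, by 0.70 ± 0.11 on the log2 scale with an adjusted p of 0.00496 by limma, and its fold change had opposite signs, -0.43 in Hs578T and 0.27, not called, in HCC70. TUBA1B differed by 0.64 ± 0.14, TUBA1C by 0.60 ± 0.15 and TUBB by 0.39 ± 0.10, with adjusted p of 0.0203, 0.0355 and 0.0430 by limma. TUBB4B, called in both lines, differed by 0.21 ± 0.08, which did not pass (adjusted p = 0.119 by limma). Only the TUBA1A call held in every fit that left out 1 library. Without 1 library TUBA1B was lost in 4 of 12 fits, TUBA1C in 7 and TUBB in 9, with log2 differences of 0.32 or more throughout. TUBA1B was lost without Hs578T non-BCSC replicate 2, Hs578T BCSC replicate 1 or 2, or HCC70 BCSC replicate 1. TUBA1C kept its call without Hs578T BCSC replicate 3, HCC70 BCSC replicate 3 or any HCC70 non-BCSC replicate, and TUBB kept it without Hs578T BCSC replicate 3 or HCC70 non-BCSC replicate 2 or 3.

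Summed over isotypes, alpha tubulin was at 634, 824 and 830 TPM in HCC70 non-BCSCs and at 1083, 1192 and 1247 TPM in BCSCs, sorted by size, a log2 difference of 0.63. The beta sum differed by 0.36 there, with means going from 527 ± 26.2 to 677 ± 12.7 TPM (n = 3). In Hs578T the alpha sum was 2230 ± 49.7 TPM for non-BCSCs against 2158 ± 183 TPM for BCSCs, and the beta sum was 1306 ± 43.9 against 1405 ± 43.8 TPM. The exact permutation test gave two-sided p = 0.1 for both sums in HCC70 and for the beta sum in Hs578T, the smallest p that 3 against 3 libraries allow, and p = 0.6 for the alpha sum in Hs578T. With canonical lengths the beta difference was 0.07 in Hs578T, where the groups overlapped (exact permutation p = 0.2), and 0.34 in HCC70 (exact permutation p = 0.1).

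Within the alpha sum, the TUBA1A share fell in Hs578T from 19.6% ± 0.26 to 15.5% ± 0.26 on the RPKM scale without overlap. The TUBA1C share was higher in BCSCs of both lines, at 17.1% ± 0.35 against 14.8% ± 0.35 in Hs578T and 23.6% ± 0.37 against 21.9% ± 0.39 in HCC70. The TUBB4B share of the beta sum was 15.0% ± 0.92 against 13.0% ± 0.46 in Hs578T and 19.7% ± 0.18 against 18.7% ± 0.29 in HCC70. TUBB6, whose level did not differ in HCC70, went from 4.06% ± 0.46 to 3.04% ± 0.031 of the beta sum there. None of these shares can fall below an exact permutation p of 0.1.

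Genes of the G2 and M phases were higher in BCSCs of both lines, while the isotypes had a median log2 fold change of 0.03 in Hs578T and 0.41 in HCC70. Of 52 such genes tested, 38 were higher and 0 lower in Hs578T BCSCs, with a median log2 fold change of 0.29. In HCC70 BCSCs 41 were higher and 0 lower, with a median of 0.50. Over all genes the medians were -0.01 and 0.02, and 2.9% and 2.28% were called higher. Leaving out 1 library gave 14 to 39 genes called in Hs578T and 11 to 42 in HCC70, with the lowest counts without Hs578T non-BCSC replicate 2 or BCSC replicate 1 (14 each), Hs578T non-BCSC replicate 1 (24), and HCC70 BCSC replicates 1, 2 and 3 (11, 27 and 24). Their summed level was 5950 to 6337 TPM in Hs578T non-BCSCs and 7351 to 7682 TPM in BCSCs. In HCC70 it was 5074 to 5371 TPM and 7001 to 7384 TPM. For KIF20A sg1 the G2 and M genes had a median of 0.21, with 0 of 52 called, and the isotypes had a median of -0.07. The part of the G2 and M genes in the tubulin values was not tested. In bulk libraries more cells in one phase and more RNA per cell cannot be told apart.

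Promoter sequences are shown for TUBB4B, called in both lines, and TUBA1C, with the largest fold change in HCC70, because they hold letters that are often found before cell cycle genes. Each is the 250 bases before a RefSeq transcript start (GRCh38.p14), written 5′ to 3′ on the gene's strand. Capitals mark the letters CCAAT, to which NF-Y binds, then a form of the cell cycle genes homology region spelled TTTGAA, and finally the GC box spelled GGGCGG, each on either strand and all kept where they overlap. TUBB4B is at chr9:137241037-137241286, plus strand, and the most downstream of 3 TUBA1C starts at chr12:49264832-49265081, plus strand.
TUBB4B: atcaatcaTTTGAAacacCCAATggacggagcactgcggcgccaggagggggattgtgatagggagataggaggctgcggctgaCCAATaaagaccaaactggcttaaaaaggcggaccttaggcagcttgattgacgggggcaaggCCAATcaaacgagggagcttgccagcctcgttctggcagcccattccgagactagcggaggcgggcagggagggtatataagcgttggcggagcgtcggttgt
TUBA1C: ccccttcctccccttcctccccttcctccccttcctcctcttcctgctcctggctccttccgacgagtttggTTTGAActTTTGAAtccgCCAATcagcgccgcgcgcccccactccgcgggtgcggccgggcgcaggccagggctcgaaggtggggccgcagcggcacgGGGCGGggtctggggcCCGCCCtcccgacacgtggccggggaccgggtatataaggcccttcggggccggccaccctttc
CCAAT occurred in 3 places in TUBB4B and in 1 in TUBA1C, and the letters TTTGAA occurred in 1 and 2 places. Of the 16 RefSeq promoters of the 10 isotype genes, 10 held CCAAT and 3, of the 2 genes shown, held the letters TTTGAA. Over 35116 promoters, 32% held CCAAT and 13.3% held the letters TTTGAA. The GC box was in 9 of the 16 promoters and in 42.6% of all. TUBA1B and TUBB, also called in HCC70, held no TTTGAA in these windows, and TUBA1B no CCAAT. A match is a description of letters and no evidence of binding.

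Other genes of the tubulin system were counted by list, and the counts are to be read against the 7.15% of all genes called in Hs578T and the 2.83% in HCC70. Of 12 other tubulins, 6 passed the filter in each sorted line, with 1 higher and 1 lower in Hs578T and 1 higher in HCC70. TUBA4A, a further alpha tubulin, changed by -0.41 ± 0.08 in Hs578T BCSCs (adjusted p = 0.0224 by limma) and by 0.33 ± 0.07 in HCC70 BCSCs (adjusted p = 0.0486 by limma), and the difference between the lines was 0.74 ± 0.10 (adjusted p = 0.00267 by limma). Its call was lost in 4 of 6 fits that left out 1 library in Hs578T and in all 6 in HCC70, while the difference between the lines kept its call in all 12. TUBA3C, an alpha tubulin best known from testis, was higher in Hs578T BCSCs by 0.58 ± 0.09 (adjusted p = 0.0105 by limma).

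Of 23 chaperonin subunits and cofactors that fold tubulin, 0 passed an adjusted p of 0.05 by limma in either line, and their median log2 fold changes were 0.02 in both. Of the enzymes that modify tubulin, 1 was higher and 2 were lower among 16 tested in Hs578T, and 0 of 14 passed in HCC70. TTLL12 was the higher one, by 0.29 ± 0.07, and the ligase family members TTLL3 and TTLL7 changed by -0.34 ± 0.07 and -0.22 ± 0.05, and each of these calls was lost in 5 of the 6 fits without 1 library. Of the microtubule-binding proteins, 1 was higher and 1 lower among 29 tested in Hs578T, and 3 were higher among 25 in HCC70, the former near the 7.15% of all genes. KIF2C, a kinesin that takes microtubules apart, was higher in BCSCs of Hs578T by 0.26 ± 0.05 and of HCC70 by 0.75 ± 0.07. CKAP5, which speeds microtubule growth, and STMN1, which holds tubulin dimers, were higher in HCC70 by 0.55 ± 0.05 and 0.33 ± 0.06 (adjusted p = 0.00466 and 0.0280 by limma). The calls of KIF2C in Hs578T and of STMN1 were lost in 5 of 6 fits without 1 library, all but those without Hs578T BCSC replicate 2 and HCC70 non-BCSC replicate 1, while those of CKAP5 and of KIF2C in HCC70 were kept in all 6.

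Patterns over the 12 sorted libraries, centred within each line, set the isotypes apart. TUBA1B, TUBA1C and TUBB followed each other with Pearson r of 0.96 to 0.97, and TUBB4B followed TUBA1C with r = 0.89, while TUBB6 had r of -0.59 to 0.56 with the other isotypes. Among 8010 genes that averaged 10 TPM or more in both lines, those most like TUBB4B were KIF18B (r = 0.98), NEURL1B (r = 0.98) and PLK1 (r = 0.98). CALM3, TM9SF1 and POC1A were most like TUBA1C (r = 1.00, 0.99 and 0.98), and MARS and RETREG2 most like TUBB (r = 0.99 each). NDUFS5, SPATA20 and GABARAP were most like TUBA1A (r = 0.98, 0.97 and 0.96), and POMGNT1, CD68 and HYOU1 most like TUBA1B (r = 0.99, 0.99 and 0.98). These r values are descriptions over libraries that share the contrast of fractions and their scaling.

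In MDA-MB-231, KIF20A itself was at 153, 173 and 156 normalized CPM in sgCtrl and at 122, 145 and 91.1 in KIF20A sg1, a log2 fold change of -0.45 ± 0.16 that did not pass adjustment (adjusted p = 0.690 by limma). The paper reports depletion by its KIF20A sgRNAs in this line from immunoblots, and RNA values do not measure the protein. Of the 8 isotypes that passed the filter, 0 were called by limma, 0 had an unadjusted p under 0.05, and 0 were called by edgeR or DESeq2. Over 12852 genes limma called 0 (0%), 899 had an unadjusted p under 0.05, and DESeq2 called 16. The 3 KIF20A sg1 libraries overlapped the 3 sgCtrl libraries for all 8 isotypes, while 13% of all genes tested had groups that did not overlap, 5.73% higher and 7.3% lower.

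Log2 fold changes ran from -0.32 ± 0.22 for TUBB2B to 0.18 ± 0.16 for TUBA1C. TUBB4B, with the highest values of the isotypes in this table, was at 796, 1017 and 878 normalized CPM in sgCtrl and at 989, 880 and 816 in KIF20A sg1, a difference of 0.00 ± 0.15. TUBB was at 431, 556 and 364 against 432, 410 and 391, and TUBA1B at 397, 434 and 417 against 452, 430 and 380. TUBB2B was at 5.70, 4.67 and 2.79 against 3.34, 3.21 and 3.03 normalized CPM. The sgCtrl libraries were spread more widely than the KIF20A sg1 libraries for TUBB and TUBB2B. TUBB3 had 11 to 26 reads and TUBB4A 0 to 4 reads per library, both under the filter. The standard error of TUBB4B was 0.15 here and 0.06 in HCC70, so a change of the size seen in HCC70 would be less well resolved.

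In the libraries labelled KIF20A OE, KIF20A was at 1348, 269 and 896 CPM against 101, 143 and 124 CPM in EV (2.49 ± 0.51, adjusted p = 0.00249 by limma). TUBB4A passed the filter only through these libraries and TUBB3 only through EV, so that both had to differ, and they are given by their reads without a test. Of the other 8 isotypes 3 were higher, 3 lower and 2 not called, where 69.7% of 15265 genes passed, 46.2% as higher and 23.4% as lower. Groups did not overlap for 6 of the 8 and for 74.1% of all genes, 48.9% higher and 25.2% lower, so these counts are near the background. Over all genes tested the median change was 0.37 on the log2 scale, and 0.03 with median-of-ratios size factors, so that changes of less than about this size depend on the scaling. The split of all calls was 7055 higher and 3579 lower, and 5135 and 5013 after rescaling.

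TUBB4A and TUBB2B were higher in the libraries labelled OE than in EV. TUBB4A, the isotype best known from brain, had 2, 0 and 2 reads in EV and 461, 817 and 791 reads in the libraries labelled OE, or 28.9 to 42.3 CPM. Pooled over libraries the ratio was 534, with an exact 95% interval of 208 to 1963 that covers counting error only. TUBB2B was at 0.857, 1.11 and 2.47 CPM in EV and at 57.0, 69.5 and 71.5 CPM, a pooled ratio of 47.1 (37.9 to 59.3). Its partner TUBB2A, with which reads may be exchanged, was at 26.7, 14.9 and 29.6 CPM and at 42.0, 58.2 and 37.2 CPM, 0.95 ± 0.27 (adjusted p = 0.0137 by limma), and 0.59 (adjusted p = 0.0831) after rescaling. Without replicate 2 of the libraries labelled OE it was 0.77 (adjusted p = 0.0611 by limma).

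TUBB6, TUBA1A and TUBB were lower in the same libraries. TUBB6 was at 396, 510 and 714 CPM in EV and at 160, 106 and 134 CPM, a log2 fold change of -1.99 ± 0.23 (adjusted p = 0.000104 by limma). TUBA1A went from 442, 384 and 821 CPM to 227, 142 and 194 CPM, by -1.49 ± 0.29. TUBB went from 2042, 1794 and 1963 CPM to 1260, 1301 and 1298 CPM, by -0.58 ± 0.11. TUBB3 had 37, 25 and 40 reads in EV and 6, 8 and 0 reads, a pooled ratio of 0.142 (0.0749 to 0.249). The groups did not overlap for TUBB6, TUBA1A and TUBB.

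TUBA1B was at 1018, 1483 and 1299 CPM in EV and at 1550, 1730 and 1758 CPM in the libraries labelled OE, 0.42 ± 0.16 (adjusted p = 0.0420 by limma), and 0.05 (adjusted p = 0.774) with median-of-ratios size factors. Its call was also lost in 5 of the 6 fits that left out 1 library, all but the one without EV replicate 2, where the change was 0.54, against 0.27 to 0.48 in the others. TUBA1C changed by -0.35 ± 0.14 without passing, by -0.47 (adjusted p = 0.0168 by limma) without EV replicate 1, and by -0.71 (adjusted p = 0.00236 by limma) after rescaling. TUBB4B was at 495, 660 and 622 CPM and at 620, 405 and 622 CPM, with overlap. The RPKM sum of the beta isotypes was 1451 ± 115 in EV and 1013 ± 79.1 in the libraries labelled OE (exact permutation p = 0.1), and that of the alpha isotypes 1205 ± 212 and 1221 ± 57.6 (exact permutation p = 0.9).

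Tubulin-related lists moved in both directions there. Of 22 folding factors, 11 were higher and 3 lower, with the prefoldin subunit VBP1 at 1.59 ± 0.20, the chaperonin subunit CCT3 at 1.42 ± 0.11 and the cofactor TBCC at -1.40 ± 0.13. Of 19 modifying enzymes, 8 were higher and 1 lower, among them VASH2 (3.18 ± 0.26) and VASH1 (2.84 ± 0.37), which remove the last tyrosine of alpha tubulin, and TTLL4 (2.16 ± 0.16), which adds glutamates. Of 31 microtubule-binding proteins, 12 were higher and 10 lower, with MAP7 (4.26 ± 0.28), MAPRE3 (3.79 ± 0.30) and MAP1A (3.65 ± 0.24) changed most. Each of these had an adjusted p under 0.05 by limma, as 69.7% of all genes did. The low CD44 and high IRS4 of the same 3 libraries, given above, moved with all of these values, and the effect of KIF20A on tubulin cannot be told apart from that difference between the groups.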

How the data were processed

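RNA-Seq was analysed in 24 libraries of 3 TNBC lines, with 3 replicates per group. Per the labels, HISAT2 2.0.5, featureCounts 1.5.0-p3 and GRCh38 were used, without saying for which table. The authors deposited TPM for Hs578T and HCC70, a signal named CPM for the KIF20A sg1 experiment (reads divided by 1 factor per library), and CPM for the OE experiment. In the last 2 tables whole reads were recovered from the steps between low values, with 100% of values above 0 within 0.05 of a whole read. For the TPM tables they were the smallest whole numbers whose ratios gave each gene's values. A divisor common to all reads of a gene is not seen this way. By comparing lengths between Hs578T and HCC70, 347 genes in Hs578T and 398 in HCC70 were multiplied back. Intervals and floors cover counting error only.

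Genes with a mean of at least 1 were tested by limma 3.58.1 with a trend on log2(value + 1) within each table (R 4.3.3), adjusted over all genes tested, with a threshold of 0.05. A fold change on this scale understates the change of low genes. The interaction was fitted over the 12 sorted libraries. Sums were compared by a two-sided exact permutation test. Alternatives were a pseudocount of 0.1, no minimum or a minimum of 5, median of ratios, quantile normalization, count models on the recovered reads (edgeR 4.0.16 or DESeq2 1.42.0), a replicate block, leaving out each library, and, chosen after the implied length of TUBB was seen, canonical transcript lengths. The fits were tested on simulated data.

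All isotypes were named in every comparison, and from each gene list at most the 3 largest changes among those called. The members and lists were chosen with earlier results of these data known. The study's methods call the replicates biological triplicates, without saying whether these were separate cultures or sorts, so p-values measure the spread between these libraries. For the KIF20A sg1 experiment the columns were matched to groups by name. Whether the transduced cells were clones or pools is not given in the sources used here. Sequences came from GENCODE v44 and RefSeq, and matched all 10 genes. The coding ends of the alpha isotypes and 1 gene of the likeness search are not reported here.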

Additional observations from a re-analysis of the deposited data

Results flagged for a closer look

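The BCSC effect of 4 of 8 isotypes differed between the lines by the test of the difference itself, as it did for 7.11% of 11668 genes (limma, interaction of fraction and line, adjusted p under 0.05). The HCC70 log2 fold change was above that of Hs578T for each of the 4, as for 5.62% of all genes. The difference was 0.70 on the log2 scale for TUBA1A, whose fold change had opposite signs, -0.43 in Hs578T and 0.27, not called, in HCC70. It was 0.64 for TUBA1B, 0.60 for TUBA1C and 0.39 for TUBB. Without 1 library the TUBA1A call held in all 12 fits, while TUBA1B was lost in 4, TUBA1C in 7 and TUBB in 9. The 2 lines were also separate batches and were grown in different media, and these cannot be told apart.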

How the results depend on the processing

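The number of isotypes called in Hs578T was 2, and 1 with no minimum or with a replicate block. In HCC70 it was 4, and 1 with no minimum, 1 after median of ratios, 2 after quantile normalization and 1 with a replicate block. For the difference between lines it was 4, and 2 after median of ratios and 1 with a replicate block. Without 1 library the counts were 0 to 2 in Hs578T, 0 to 4 in HCC70, 0 to 0 for KIF20A sg1 and 1 to 5 for the difference, and the causes were not tested. The count for OE is left out, since it would include TUBB3 and TUBB4A. Same-numbered libraries had deviations that correlated by -0.16 to 0.19, so that the numbers were not treated as pairs.

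Each isotype whose sign turned had a main log2 fold change smaller in size than its standard error. The largest was -0.15 ± 0.21, for TUBB2A in KIF20A sg1. TUBB2A in Hs578T was 0.0166 after median of ratios, 0.0203 with edgeR and 0.0232 with DESeq2. TUBB4B for KIF20A sg1 was 0.0069 after median of ratios, 0.0399 after quantile normalization, 0.0177 with edgeR and 0.0043 with DESeq2, and for OE 0.0497 after quantile normalization. Without 1 library, Hs578T values ran from -0.109 to 0.00173 for TUBA1B, -0.0554 to 0.0780 for TUBB, -0.101 to 0.0484 for TUBB2A, -0.0829 to 0.0590 for TUBB3, -0.000522 to 0.0780 for TUBB6 and -0.112 to 0.00966 for the alpha sum. The HCC70 value of TUBB6 ran from -0.0509 to 0.000192. For KIF20A sg1 they ran from -0.312 to 0.101 for TUBA1A, -0.0383 to 0.0851 for TUBA1B, -0.253 to 0.0523 for TUBB, -0.336 to 0.0670 for TUBB2A, -0.0822 to 0.0937 for TUBB4B and -0.0835 to 0.00286 for TUBB6, and for OE from -0.249 to 0.0804 for TUBB4B. Of the values of single genes under the other alternatives, 541 kept direction and side of the threshold, 48 lost a call, 5 gained one and 8 changed sign. Without sgCtrl replicate 3, 144 genes were called over the whole KIF20A sg1 table.

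Shares depended on the length used. From reads with no length term, Hs578T non-BCSC shares were 18.1% for TUBA1A, 58.9% for TUBA1B, 23.0% for TUBA1C, 77.2% for TUBB, 0.914% for TUBB2A, 7.27% for TUBB3, 9.01% for TUBB4B and 5.38% for TUBB6, and HCC70 shares were 1.16%, 66.1%, 32.7%, 81.45%, 0.680%, 1.75%, 12.8% and 3.34%. Per canonical length they were 19.6%, 65.6%, 14.8%, 69.4%, 1.28%, 9.63%, 13.0% and 6.47% for Hs578T, and for HCC70 1.31%, 76.8%, 21.9%, 74.0%, 0.961%, 2.35%, 18.7% and 4.06%. With the other tubulins in the sum TUBA1B held 59.8% in Hs578T, and TUBA1A 0.697%, TUBA1B 56.2% and TUBA1C 31.4% in HCC70. TUBB2A and TUBB2B together held 3.61% in Hs578T.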

Other observations

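Among the tubulins that are not alpha or beta isotypes of the 10 named, TUBG2, a gamma tubulin, had a BCSC log2 fold change in HCC70 that was above that in Hs578T by 0.47 ± 0.11 (adjusted p = 0.0296 by limma), a call that was lost in 5 of the 12 fits without 1 library. In the libraries labelled KIF20A OE, TUBA4A was at -2.81 ± 0.21, TUBG2 at -1.57 ± 0.17 and TUBE1, an epsilon tubulin, at 1.63 ± 0.24 against EV (adjusted p of 0.000455 or less by limma). Among the enzymes that modify tubulin, the log2 fold change in HCC70 minus that in Hs578T was 0.41 ± 0.10 for AGBL5, 0.35 ± 0.09 for SIRT2 and -0.38 ± 0.09 for TTLL12, with adjusted p of 0.0266 to 0.0460 by limma. Without 1 library these 3 calls were lost in 8, 10 and 7 of 12 fits for AGBL5, SIRT2 and TTLL12.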
